A study of Homo sapiens with 8 samples.

Results

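DNA replication and licensing genes were described across untreated SW480, untreated SW620 and SW620 carrying a control hairpin RNA (shNC) or a hairpin RNA against FOXA2 (shFOXA2). The genes were taken by name: 32 symbols were listed, 31 of them were found among the 40693 symbols of the expression tables, and UHRF1 was not analysed here. SW480 and SW620 are established human colorectal adenocarcinoma lines, labelled Dukes' type B and Dukes' type C. RNA sequencing covered 1 library of each untreated line, 3 of shNC and 3 of shFOXA2, and the hairpin cells were stable puromycin-selected populations of SW620 made with a lentiviral U6 vector that also carries mCherry. The series title concerns reprogrammed transcription in liver metastasis of colorectal cancer, and FOXA2 is a forkhead transcription factor that opens chromatin in endoderm-derived tissues such as liver.

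Before a cell copies its DNA, the origin recognition complex (ORC), CDC6 and CDT1 load the ring-shaped helicase MCM2 to MCM7 onto origins, a step called licensing. In S phase MCM10, CDC45 and the GINS complex turn the loaded ring into a moving helicase, polymerase alpha-primase starts each strand, and the sliding clamp PCNA, placed by replication factor C (RFC), holds the copying polymerases on DNA. Many of these genes are known targets of E2F transcription factors, which the retinoblastoma protein holds back until cyclin E and its kinase act at the end of G1.

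Total counts over genes ran from 7478411 to 13076566 in the 6 hairpin libraries and were 72323506 in SW480 and 95935348 in SW620. FOXA2 had 52.5, 49.0 and 51.9 CPM (counts scaled to library size by the TMM method) in shNC replicates 1 to 3 and 30.3, 29.3 and 22.2 in shFOXA2 replicates 1 to 3, so the hairpin target was lower in all 3 libraries of its group. Replicate 1 stood apart in both hairpin groups: chi-square per degree of freedom between replicates was 3.97 to 4.60 for pairs that held a replicate 1 and 1.67 to 1.74 for the others. In shFOXA2 replicate 1 the hepatocyte marker list summed to 16.6 RPKM (reads scaled to gene length and library total), against 4.35 to 5.07 in the other hairpin libraries, owing mainly to APOB, while TTR and FGB were at 0 in all 8 libraries. The colorectal epithelium list (9 of 9 markers found) summed to 1616 to 2334 RPKM in the 8 libraries, and the leukocyte list to 8.72 to 10.8 in shNC and 11.5 to 13.7 in shFOXA2. The fibroblast and endothelium list (8 of 9 found) was higher in shFOXA2 (137 to 144 RPKM) than in shNC (86.7 to 94.7), nearly all of it VIM, a gene that these lines also express. VIM (log2 fold change 0.64), COL1A1 (1.06) and LUM (0.53) of that list and LYZ (0.85) of the leukocyte list were each called higher in shFOXA2, while COL1A2 and COL3A1 were at 0 in all libraries. The part of these lists in the results was not tested. Bulk RNA cannot tell fewer cycling cells from less of each RNA per cell. No label says if replicates were separate cultures, so p-values measure only the spread between these libraries, which may be technical.

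Replication genes were lower in SW620 with the FOXA2 hairpin than with the control hairpin. Of the 31 genes, all of which passed the filter on low counts, 28 fell and 0 rose at an adjusted p of 0.05 (edgeR quasi-likelihood test, 3 libraries against 3). Over all 16100 genes tested, 19.8% fell and 19.2% rose. For 27 of the 31 genes, the highest shFOXA2 value was under the lowest shNC value, which held for 24.5% of all genes. The falls were modest: the median log2 fold change was -0.30, against 0.01 over all genes, and single genes ran from -1.01 (E2F2) to 0.01 (GINS1). Summed, the 31 genes took 4655, 4576 and 4578 CPM in shNC and 3620, 3679 and 3543 in shFOXA2 (scaled by total counts only), which is 21.5% lower. A two-sided exact permutation test of that sum gave p = 0.1, the smallest value that 3 libraries against 3 allow. With replicate 1 of both groups left out, 23 genes fell and 0 rose, with a median of -0.30. Over the 16048 genes tested in that setting, 2946 fell and 2835 rose.

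**Figure D1:**
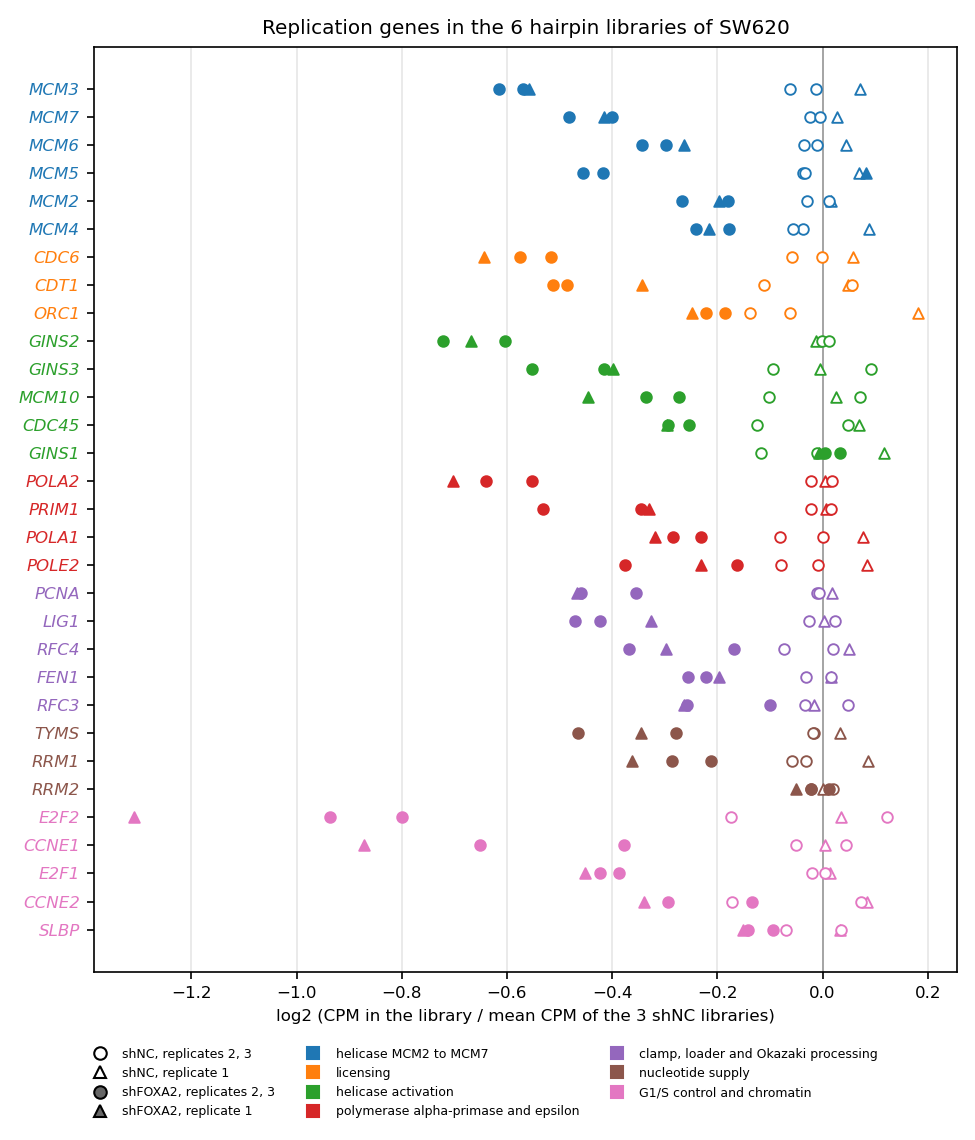
Each row is 1 gene and each point 1 hairpin library, as the log2 ratio of its CPM to the mean of the 3 shNC libraries; open points are shNC, filled points shFOXA2, triangles replicate 1, and colours mark role groups. Filled points lie left of open points for 27 of 31 genes, and MCM5, GINS1, RRM2 and CCNE2 are the rows where they overlap.

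The replicative helicase MCM2 to MCM7 was lower in 5 of its 6 subunits. MCM3 (identifier ENSG00000112118.13, chromosome 6 from 52264009 to 52284881 on GRCh38) had 405, 382 and 369.6 CPM in shNC and 262, 259.8 and 252 in shFOXA2. The groups did not overlap, and MCM3 had a log2 fold change of -0.58 with an SE of 0.04 (adjusted p = 1.02e-14). MCM7 had 703, 678 and 687 CPM in shNC and 517, 522 and 494 in shFOXA2 (log2 fold change -0.43, SE 0.04, adjusted p = 1.25e-11). MCM6 fell by 0.30, from 183, 176 and 173 CPM to 148, 144 and 139. The smallest falls in the ring were those of MCM2, from 378, 377 and 366 CPM to 326, 330.2 and 311 (log2 fold change -0.21, SE 0.04), and MCM4 (-0.21, SE 0.04). The 95% interval of MCM3 (-0.67 to -0.49) did not reach that of MCM2 (-0.30 to -0.13). Differences between genes, here and in later sentences on intervals, were not themselves tested.

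MCM5 was the subunit that did not pass the test. It had 126, 117 and 118 CPM in shNC against 127, 90.2 and 87.8 in shFOXA2, so replicate 1 of the FOXA2 hairpin lay at the level of the controls and the other libraries well below. Its log2 fold change was -0.23 (95% interval -0.71 to 0.24, adjusted p = 0.385). Without shFOXA2 replicate 1 it was -0.44 (adjusted p = 8.22e-09), and without replicate 1 of both groups -0.40 (adjusted p = 7.89e-10).

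All 3 licensing factors fell. CDC6, an ATPase that helps ORC to load the MCM ring, had 89.4, 85.9 and 82.5 CPM in shNC and 55.0, 57.7 and 60.1 in shFOXA2 (log2 fold change -0.58, SE 0.06, adjusted p = 1.97e-11). CDT1, the partner of CDC6 that geminin inhibits, went from 40.5, 40.7 and 36.2 CPM to 30.9, 27.4 and 27.9 (-0.44, SE 0.08). Neither gene's groups overlapped. ORC1, the largest subunit of ORC, fell by 0.22 (adjusted p = 0.0168). With shNC replicate 1 left out, the library with the highest ORC1 level, ORC1 did not pass (-0.13, adjusted p = 0.189).

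Of the 5 genes that activate the helicase, 4 fell. GINS2 (chromosome 16 from 85676198 to 85690073) had 45.9, 46.2 and 46.6 CPM in shNC and 29.1, 30.4 and 28.0 in shFOXA2, a 1.59-fold lower level with little spread inside either group (log2 fold change -0.67, SE 0.07, adjusted p = 5.83e-10). GINS3 went from 29.4, 31.5 and 27.7 CPM to 22.4, 22.1 and 20.1 (-0.45, SE 0.09). MCM10, which helps CDC45 and GINS to act, went from 62.5, 64.5 and 57.2 CPM to 45.1, 50.8 and 48.7 (-0.36, SE 0.06), and CDC45 fell by 0.28. GINS1, a subunit of the same 4-part complex, did not pass, with 50.5, 42.9 and 46.2 CPM in shNC and 46.3, 46.7 and 47.7 in shFOXA2. The shFOXA2 values of GINS1 lay inside the range of shNC, and its log2 fold change was 0.01 with a 95% interval of -0.13 to 0.15, which does not reach the interval of GINS2 (-0.81 to -0.52).

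Genes that start and extend strands fell in 4 of 4 cases. POLA2, the B subunit of polymerase alpha, had 66.2, 66.8 and 64.9 CPM in shNC and 40.6, 44.96 and 42.4 in shFOXA2 (log2 fold change -0.64, SE 0.06, adjusted p = 2.93e-11). POLA1, its catalytic subunit, went from 114, 102 and 108 CPM to 86.9, 92.4 and 89.0 (-0.28, SE 0.05). The groups did not overlap for either subunit. The primase subunit PRIM1 fell by 0.40 and the polymerase epsilon subunit POLE2 by 0.26 (adjusted p = 0.0308). POLE2 did not pass when any 1 of 4 libraries was left out: the adjusted p was 0.0530 without replicate 1 and 0.135 without replicate 3 of shFOXA2, and 0.0924 without replicate 1 and 0.0625 without replicate 3 of shNC.

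The clamp, its loader and the enzymes that finish Okazaki fragments, the short pieces of the lagging strand, fell in 5 of 5 cases. PCNA had 613, 602 and 603 CPM in shNC and 438, 474 and 441 in shFOXA2 (-0.43, SE 0.04, adjusted p = 2.81e-11), groups that lay far apart. LIG1, the ligase that joins the fragments, went from 71.3, 72.3 and 69.9 CPM to 56.8, 51.3 and 53.1 (-0.40, SE 0.06). The loader subunits RFC4 (-0.28) and RFC3 (-0.21) and the flap nuclease FEN1 (-0.22) fell less.

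Nucleotide supply was split. TYMS, thymidylate synthase, fell from 139, 135 and 134 CPM to 107, 112 and 98.6 (-0.36, SE 0.05, adjusted p = 5.34e-08). RRM1, the large subunit of ribonucleotide reductase, went from 252, 233 and 228 CPM to 185, 205 and 195 (-0.29, SE 0.05, adjusted p = 2.65e-06). RRM2, the small subunit of that same enzyme, did not pass: it had 156, 158 and 153 CPM in shNC and 150.1, 157 and 153 in shFOXA2. The RRM2 groups overlapped, and its 95% interval of -0.11 to 0.07 on the log2 scale did not reach that of RRM1 (-0.38 to -0.19).

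The group of G1/S control and chromatin genes, which takes in SLBP, also fell, in 5 of 5 cases. E2F2, an activating E2F factor, had 15.7, 16.7 and 13.6 CPM in shNC and 6.19, 8.01 and 8.81 in shFOXA2, 2.02-fold lower (log2 fold change -1.01, SE 0.14, adjusted p = 4.81e-08). E2F1 went from 75.7, 73.9 and 75.2 CPM to 54.8, 57.3 and 55.9 (-0.42, SE 0.06, adjusted p = 4.65e-08). No library of the 2 groups overlapped for either factor. Of the E-type cyclins, CCNE1 (-0.64, adjusted p = 0.00649) was the scarcer, with 3 shNC libraries at 5.82 ± 0.19 CPM (SD) and 3 shFOXA2 libraries at 3.79 ± 0.66. With shFOXA2 replicate 1 left out, CCNE1 did not pass (adjusted p = 0.0544). CCNE2 fell by 0.26 with overlapping groups, and did not pass with shFOXA2 replicate 1 (adjusted p = 0.0791), replicate 1 of shNC (0.0516) or replicate 3 of shNC (0.0811) left out. SLBP, which binds the stem-loop of histone messenger RNA, fell by 0.13, and did not pass with shFOXA2 replicate 1 (adjusted p = 0.0822), replicate 3 of shFOXA2 (0.0517) or replicate 2 of shNC (0.0935) left out.

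The E2F sequence TTTCGCGC or TTTGGCGC was searched on both strands of the RefSeq promoter windows (GRCh38.p14, 250 bases before to 50 after a gene's start), because E2F1 and E2F2 fell and because many replication genes are known E2F targets. Windows were found for 28 of the 31 genes. Of these 28, 11 (39.3%) held a match, against 1.40% of 27305 genes with a window and 2.32% of the 10184 tested genes with one. Since the list is made of genes of which many are known E2F targets, this excess follows from their choice. It says nothing about the hairpin, and a link between matches and falls was not tested. The matches, in capitals within 30 bases written 5′ to 3′ on the strand of the gene, are shown for 8 genes: helicase subunits, CDC6 and POLA2 with their large falls, both E2F genes, and GINS1, which did not pass the test.
MCM2 (chr3:127598404-127598433, plus strand): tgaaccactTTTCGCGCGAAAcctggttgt
MCM3 (chr6:52284728-52284757, minus strand): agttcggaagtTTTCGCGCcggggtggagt
MCM7 (chr7:100101388-100101417, minus strand): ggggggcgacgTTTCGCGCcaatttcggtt
CDC6 (chr17:40287875-40287904, plus strand): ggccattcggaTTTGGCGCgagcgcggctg
POLA2 (chr11:65261898-65261927, plus strand): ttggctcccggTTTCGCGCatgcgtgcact
E2F1 (chr20:33686387-33686416, minus strand): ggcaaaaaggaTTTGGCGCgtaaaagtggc
E2F2 (chr1:23531257-23531286, minus strand): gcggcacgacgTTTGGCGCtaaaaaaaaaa
GINS1 (chr20:25407667-25407696, plus strand): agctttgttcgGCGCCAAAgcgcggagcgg

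In MCM2 the capitals are 2 overlapping matches, TTTCGCGC on each strand, and in GINS1 the match lies on the opposite strand. MCM6 held 2 overlapping pairs, each of TTTGGCGC on the strand of the gene and TTTCGCGC on the opposite strand. POLA1 and POLE2 held 1 match each. The median log2 fold change in the hairpin libraries was -0.42 for the 11 genes with a match and -0.36 for the 17 without. CCAAT, another motif common in these promoters, was held by 15 of the 28 genes (53.6%), against 43% of tested genes with a window. A match is a string of letters in this window and was not measured as a bound site.

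The hairpin itself was also compared with the transcripts of these genes. The labels give 2 FOXA2 hairpin targets and do not say which one these libraries carry, though the titles hold a 1 before the replicate number. The target of FOXA2 hairpin 1 in the labels matched no gene other than FOXA2 among GENCODE v29 transcripts, in coding exon 3 of 3 at chr20:22583093-22583113 (GRCh38, minus strand). The control target matched no transcript of that release.
FOXA2 hairpin 1 target: gaacggcatgAACACGTAcat
Control target: caacaagatgaagagcaccaa

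The capitals mark bases 11 to 18, which hold AACACGT and ACACGTA, chosen with earlier results of these libraries known. At least 1 of these was in the annotated 3' untranslated region of 0 of 31 replication genes and of 5.82% of 12436 tested genes that have one. With so low a share over all genes, 0 of 31 is near the background and says nothing particular of the replication genes. Other short stretches of the target were not searched, so partial matches of the hairpin in general were not covered.

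A wider list of 82 other replication genes, 81 of them tested, was less uniform: 29 fell (35.8%) and 14 rose (17.3%), against 19.8% and 19.2% of all genes, so the share that rose was near that of all genes. The median log2 fold change was -0.09, against 0.01 over all genes. Chromatin assembly and methylation factors had 4 of 6 lower and 0 higher, led by ASF1B (-0.36) and CHAF1B (-0.51), which hand histones to new DNA. Nucleotide supply had 4 of 7 lower, led by SAMHD1 (-0.87), an enzyme that breaks down deoxynucleotides, and thymidylate kinase DTYMK (-0.42). GMPS (0.11) and RRM2B (0.42), the p53-inducible small subunit of ribonucleotide reductase, rose. Fork and helicase-activation genes had 4 of 9 lower, led by TIMELESS (-0.72, adjusted p = 2.16e-16), a fork protection factor that went from 136, 131 and 128 CPM to 78.4, 79.6 and 82.01, and the helicase RECQL4 (-0.71). The checkpoint mediator CLSPN (0.17) and the fork factor DONSON (0.27) rose. With shFOXA2 replicate 3 left out, CLSPN (adjusted p = 0.0763) and GMPS (0.253) did not pass, nor did GMPS without shFOXA2 replicate 2 (0.0634), shNC replicate 2 (0.176) or shNC replicate 3 (0.122), or DONSON without shFOXA2 replicate 2 (0.0501).

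Among polymerase subunits, the catalytic subunits POLD1 (-0.76) and POLE (-0.33) fell and the accessory subunit POLD2 (0.15) rose. Clamp, single-strand binding and Okazaki genes had 4 of 12 lower and 0 higher, led by DNA2 (-0.56) and RNASEH2A (-0.50), nucleases that trim RNA-primed fragments. The single-strand binding subunits RPA1 (0.10), RPA2 (0.11) and RPA3 (0.21) did not pass, though RPA1 did when counts were thinned to the shallowest library (adjusted p = 0.0209). The licensing and origin group of the wider list, which is broader than the licensing factors, moved both ways, with 3 of 11 lower and 4 higher. CDC7, the kinase that fires origins, fell (-0.36), while ORC5 (0.35), ORC2 (0.28), MCM9 (0.36) and MCMBP (0.12) rose. ORC2 went from 59.0, 56.6 and 53.6 CPM to 71.8, 68.5 and 65.0, opposite to ORC1 of the same complex. ORC4 of that complex also fell (-0.19, adjusted p = 0.0192), and ORC3 and ORC6 did not pass. The fall of ORC4 did not pass without shFOXA2 replicate 2 (adjusted p = 0.0607) or 3 (0.0707), or shNC replicate 2 (0.0757) or 3 (0.0938). The rises of MCM9 (adjusted p = 0.0618) and MCMBP (0.0707) did not pass with shFOXA2 replicate 3 left out, nor with shNC replicate 3 left out (0.0505 and 0.0953), nor did MCMBP without shNC replicate 1 (0.0530) or POLD2 without shNC replicate 3 (0.0565).

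G1/S regulators beyond the cyclins E and the first 2 E2F factors had 7 of 20 lower and 5 higher. The D-type cyclin CCND1 fell (-0.52, adjusted p = 2.77e-13), from 625, 682 and 647 CPM to 437, 450.4 and 475, and so did MYBL2 (-0.51), an E2F-responsive transcription factor. CDC25A (0.49), the phosphatase that activates the cyclin E kinase, the ubiquitin ligase subunit SKP2 (0.43), the kinase inhibitor CDKN1A (0.45), RB1 (0.27) and E2F5 (0.28) rose. Of 8 tested replication-dependent histone genes, HIST1H2AC fell (-0.38) and 7 did not pass. Of the 7, HIST1H1D, HIST1H1E, HIST1H3B and HIST1H4C had shNC means of 0.89 to 1.76 CPM and SEs of 0.32 to 0.46. With SEs this wide, modest falls could not be told from no change. HIST1H4H was called lower with shNC replicate 1 left out (-0.27, adjusted p = 0.0181).

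**Figure D2:**
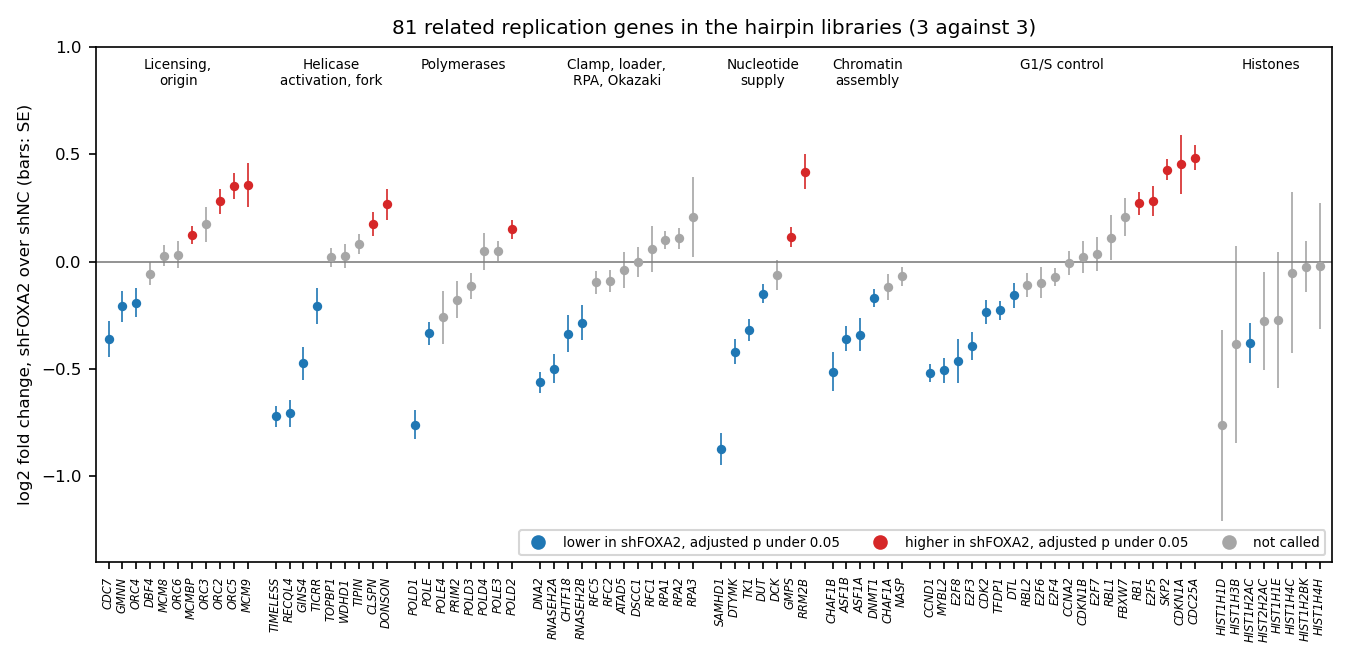
Log2 fold change in shFOXA2 over shNC for 81 related replication genes by role, with bars of 1 SE; blue genes fell, red genes rose and grey genes did not pass an adjusted p of 0.05. Lower genes outnumber higher ones, 29 (35.8%) against 14 (17.3%), where all genes have 19.8% and 19.2%, and both directions are present among licensing, fork, polymerase, nucleotide and G1/S genes.

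The untreated lines, 1 library each and therefore without a test, were compared to ask how replication genes differ between SW480 and SW620, lines labelled with different Dukes' types. Ratios are of TMM-scaled CPM over the 2 libraries, and their exact 95% intervals cover counting error only. FOXA2 itself had 319 counts in SW480 and 7882 in SW620, or 4.50 and 81.0 CPM (18.0-fold, 16.1 to 20.2). A relation of that difference to the replication genes was not tested. Replication genes differed little by the measure used: 1 of 31 passed 2-fold towards SW620 and 1 towards SW480. Of 16864 genes that reached 100 counts in at least 1 line, 13.2% and 13% did so. The median log2 ratio of SW620 to SW480 was 0.19 for the 31 genes and 0.03 for all genes, and 20 of the 31 were higher in SW620 (64.5%, against 52.1% of all genes).

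MCM2 was the gene past 2-fold in SW620, with 11861 counts in SW480 and 35940 in SW620, or 167 and 369.3 CPM (2.21-fold, 2.16 to 2.25). E2F2 followed, with 887 and 2375 counts (1.95-fold, 1.80 to 2.11), then GINS3 with 1211 and 2720 (1.64-fold, 1.53 to 1.75). At the other end RRM2 had 28161 counts in SW480 and 14453 in SW620, or 397 and 149 CPM, and was 2.68-fold lower in SW620. CDC6 had 11034 and 8215 counts, a ratio of 0.54 (0.53 to 0.56), and MCM6 16184 and 14715, a ratio of 0.66 (0.65 to 0.68). The subunits of the MCM ring therefore stood on both sides of equal levels, with MCM2, MCM3 and MCM5 higher in SW620 and MCM4, MCM6 and MCM7 higher in SW480. All 5 genes of the G1/S control and chromatin group, SLBP among them, were on the SW620 side, from E2F1 (1.02-fold, 0.98 to 1.06) to E2F2.

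**Figure D3:**
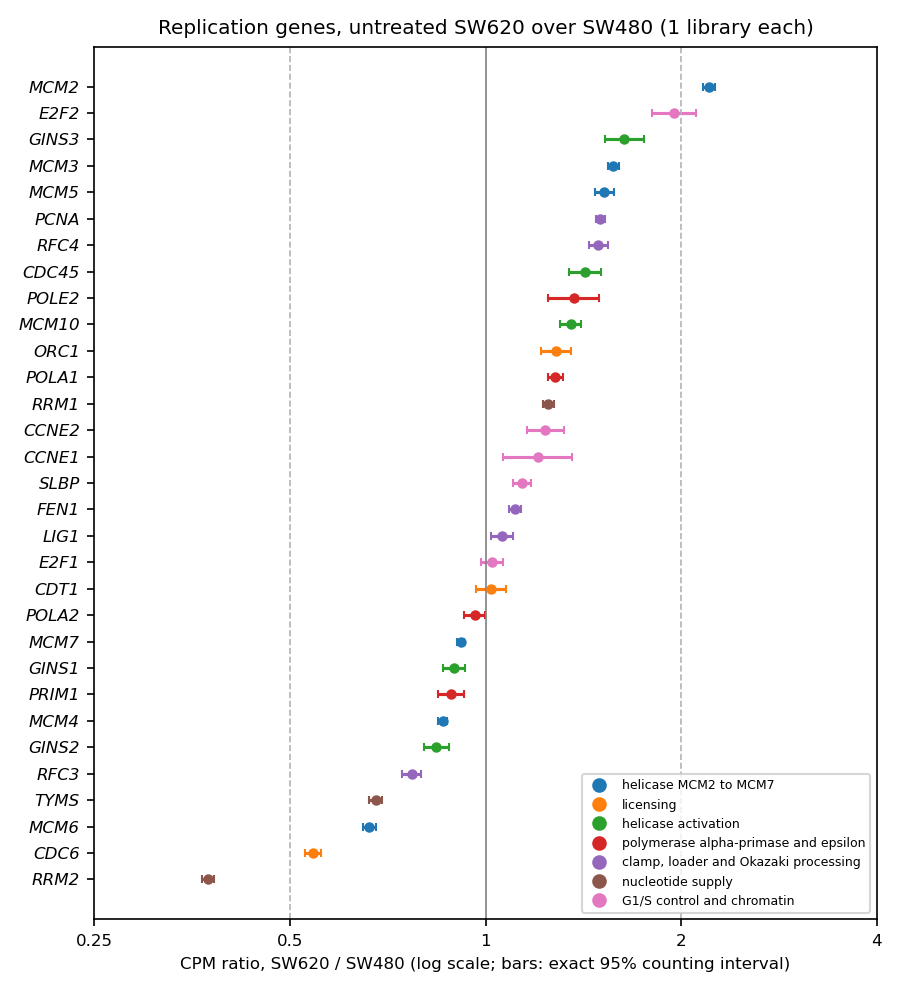
Ratio of CPM in untreated SW620 to untreated SW480 for each of 31 genes on a log axis, 1 library each, with exact 95% counting intervals and colours for role groups. MCM2 is the point beyond the upper dashed line at 2-fold and RRM2 the point beyond the lower one.

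The order of the genes differed between the line and the hairpin comparison. RRM2 and GINS1, which did not pass in the hairpin libraries, had ratios of 0.37 and 0.89 between the lines, and MCM2, the highest ratio, fell by 0.21 with the hairpin. POLA2, lower by 0.64 with the hairpin, had a ratio of 0.96 (0.93 to 1.00). E2F2 and CDC6 were far from equal in both comparisons. Across the 31 genes, which are not independent replicates, the log2 values of the 2 comparisons had a Pearson correlation of -0.22 and a Spearman correlation of -0.09. They share no library.

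On the scale per gene length, the authors' RPKM, PCNA was the most abundant of the 31 genes in all 4 conditions, at 214 in SW480, 332 in SW620, 412 ± 3.01 in the control hairpin libraries and 304 ± 11.7 in the FOXA2 hairpin libraries (SD, n = 3 each). In shNC the order went on with MCM7 at 157 ± 1.68 and MCM3 at 106 ± 3.30, and ended with E2F2 at 2.81 ± 0.28 and CCNE1 at 2.27 ± 0.07. The ring subunits, which act in equal numbers, ranged in shNC RPKM from 16.4 ± 0.46 (MCM5, for which the tables list a length of 7338 bases) to that of MCM7. FEN1 (87.3 ± 1.88) and MCM2 (76.3 ± 0.90) followed MCM3 in shNC, with no overlap between neighbours. RRM2 was higher in SW480 (78.6 RPKM) than in untreated SW620 (30.4), shNC (31.4 ± 0.54) or shFOXA2 (30.7 ± 0.59).

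Untreated SW620 and shNC SW620 were not compared by a test, since they differ in depth and in the share of mitochondrial counts, 11.1% against 4.46% to 4.82%. The shNC mean over the untreated SW620 value in RPKM ran over the 31 genes from 0.62 (E2F2, 2.81 against 4.54) to 1.46 (POLE2, 7.20 against 4.92).

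**Figure D4:**
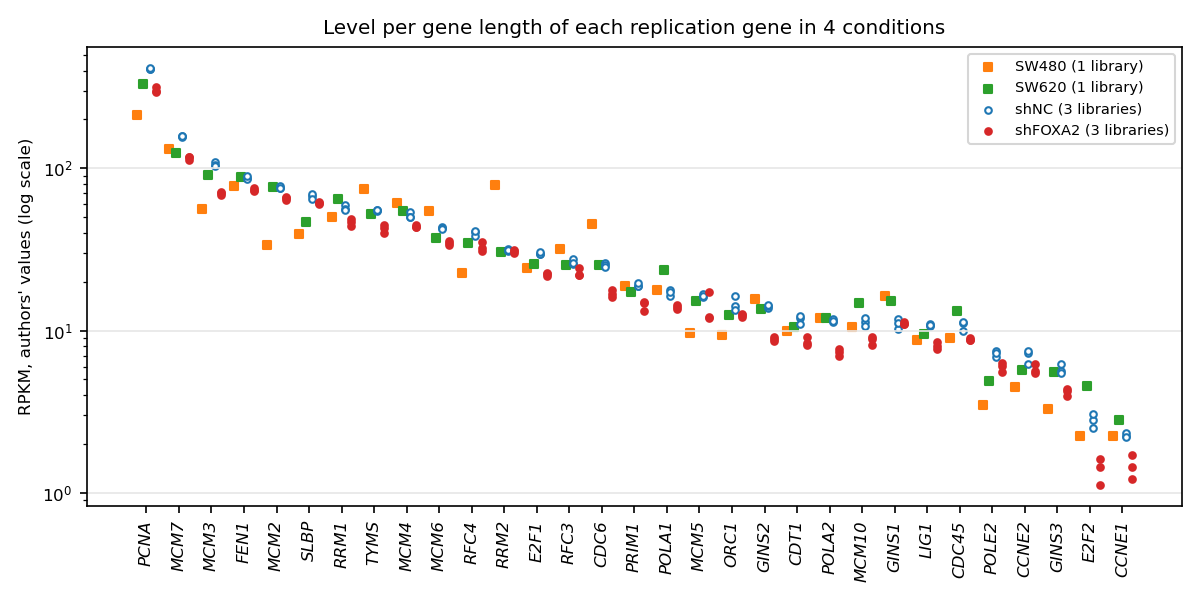
Authors' RPKM on a log axis for 31 genes, ordered by the shNC mean; squares are the single libraries of SW480 and SW620, open circles the 3 shNC and filled circles the 3 shFOXA2 libraries. RRM2 and CDC6 are among the genes with SW480 above all other libraries, and MCM2 and MCM3 among those with SW480 below them.

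Several of these genes share exon bases with a neighbour in GENCODE v29, and the use of strand in counting was not stated, so their counts may hold reads of the other gene. At least 5% of exon bases were shared for 9 genes: MCM2 (31.97%), MCM7 (7.58%), GINS3 (16.5%), POLA2 (53.7%), PRIM1 (34.8%), FEN1 (9.36%), RRM2 (27.9%), TYMS (64.6%) and CCNE2 (47.6%). Of the other 22 genes 20 fell with the hairpin, and MCM5 and GINS1 did not pass.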

How the data were processed

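Total RNA of 8 cell-line libraries had been sequenced after a directional library kit, per the labels' protocols, and each sample was 1 deposited table of 42713 genes. The deposited tables give raw read counts per gene, a gene length in bases and RPKM. Dividing counts by total and length returned the authors' RPKM for 100% of genes with more than 20 counts (relative tolerance 1e-04). The submitters' processing notes name HOMER and hg19 without a role. Aligner, counter and annotation: not given in the sources used here. Where a symbol repeated, the row with most counts was kept.

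Groups came from sample titles. The hairpin libraries (3 against 3) were compared with edgeR 4.0.16 (robust quasi-likelihood test, two-sided, TMM scaling, default expression filter; R 4.3.3) over all 16100 genes, with Benjamini-Hochberg adjustment over all of them at 0.05. The SE is the log2 fold change over the square root of F, and intervals use the test's degrees of freedom. The biological coefficient of variation was 6.59%. For the untreated lines, ratios of TMM-scaled CPM with nothing added carry exact binomial 95% intervals. A limit of 3 counts is 0.0313 to 0.401 CPM in these libraries. Gene locations, 3' untranslated regions and hairpin matches came from GENCODE v29 (GRCh38), and promoters from RefSeq (GRCh38.p14), a build other than hg19. Python 3.11.15 with pandas 2.3.3, scipy 1.17.1 and matplotlib 3.10.9 was used for ratios, motifs and plots.

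The genes, lists and motifs were chosen with earlier results of these data known, and 1 gene of the wider list is not reported here. Values in every library are given for the 2 genes with the smallest p in each of 7 role groups, those not called, and the 3 highest and 3 lowest ratios between the lines; MCM2, GINS3 and MCM6 enter by the last. Of the wider list, those named are the 2 with the smallest p per role and those called higher. CDC7, MYBL2, ORC3, ORC4, ORC6, the RPA subunits and the per-library values of TIMELESS, ORC2 and CCND1 were chosen after their values were seen. So were the named histone genes other than HIST1H2AC, and the FOXA2 values of the untreated lines. In simulated libraries of the hairpin comparison (16100 genes), 5 of 50 genes changed 1.15-fold were recovered, 24 of 50 at 1.25-fold, 45 of 50 at 1.5-fold and 49 of 50 at 2-fold, with 10 unchanged genes called. Far fewer genes were changed there than the 6280 called in the real comparison, so the adjusted threshold was stricter. The recovered shares are therefore not those of the real libraries. Alternatives covered scaling, filter, test (DESeq2 1.42.0, limma 3.58.1), threshold, replicate block, thinning, repeated symbols, each library left out, the fold and count minimum between lines, and a shorter motif.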

Additional observations from a re-analysis of the deposited data

How the results depend on the processing

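Of the 28 replication genes called lower with the hairpin, 22 kept the call under all 16 alternatives run per gene, and 0 turned direction. ORC1, POLE2, CCNE1, CCNE2, SLBP and CDC45 lost it under at least 1, CDC45 only without replicate 1 of both groups (adjusted p = 0.0592). Without 1 hairpin library at a time, the count of called genes was 25 to 28 and the median log2 fold change -0.34 to -0.29. The wider list gave 35 to 42 calls, and all genes 5299 to 5872. The count was 24 with the DESeq2 Wald test and 27 with limma-voom, against 4901 and 5958 of all 16100 genes. Correlations between shNC and shFOXA2 libraries, each taken from its group mean, were 0.06, -0.02 and 0.07 for same-numbered libraries. For differently numbered ones they ran from -0.11 to 0.07. Pairing by replicate number was therefore not established, and a shared origin of the replicate 1 libraries was not tested. With the replicate block 28 genes were called, the wider list gave 43 and all genes 6139. In the wider list the block added RPA3 (log2 fold change 0.19, adjusted p = 0.0113) and dropped GMPS (adjusted p = 0.0556), and thinning added RPA1 (adjusted p = 0.0209) and RFC5 (adjusted p = 0.0302) and dropped DTL, GMNN and GMPS. Not every library correlated best with its own number. Without replicate 1 of both groups, an alternative chosen after seeing the data, 23 were called, against 5781 of all 16048 genes tested.

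Between the lines, 9 of 31 replication genes lay past 1.5-fold and 0 past 4-fold, against 7529 and 1978 of all 16864 genes. With at least 20 counts, 2 of 31 replication genes and 6728 of 21343 genes lay past 2-fold. The shorter motif, GGCGGGA or GCGCGAA, was held by 19 of 28 promoters (67.9%, against 32.8% of tested genes), and the main motif by 11 (39.3%, against 2.32%). Depth limited CCNE1, the scarcest of these genes, which lost its call on thinning to the shallowest library (adjusted p = 0.0907). In simulated libraries 24 of 50 genes changed 1.25-fold were recovered, with far fewer genes changed than the 6280 called in the real comparison.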
